A study of Rattus norvegicus with 9 samples.

Results

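Denervated rat calf muscle that received daily electrical stimulation (DN-SM) was compared with denervated muscle that received none (DN). The comparison used 6 of the 9 libraries of the series, 3 of DN-SM and 3 of DN, taken by their group labels. All samples were gastrocnemius, the large calf muscle supplied by the sciatic nerve, from male rats aged 8 weeks, and both groups had a sciatic nerve injury. DN-SM animals were stimulated every day for 4 weeks, starting on the day of surgery, with surface electrodes on the left leg delivering square pulses (25 V, 1 mA, 2 Hz, pulse width 300 ms) under pentobarbital. The labels report that the heel lifted during stimulation. DN animals were anaesthetised and shaved and carried the electrodes for 10 min with no current. The same was done in the 3 SHAM libraries' animals, which had a sham operation in place of the injury and are used here only as reference levels. The labels do not give the kind of nerve injury, when DN muscle was taken, the hour of sampling, or whether each library came from a separate animal, so p-values measure the spread between these samples, which may be technical.

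A muscle fibre that loses its nerve stops contracting on command and wastes. Such fibres are known to spread acetylcholine receptors over their surface, to make embryonic contractile proteins again, to raise enzymes that mark proteins for destruction, and to change the mix of fast and slow myosins, while the connective tissue around them expands. Electrodes over the muscle can make denervated fibres contract directly. In muscle with an intact nerve, long periods of low-frequency stimulation are known for raising oxidative enzymes and slow contractile proteins.

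Messenger RNA was sequenced on a BGISEQ-500. The 6 libraries held 7946227 to 8644286 expected counts, the read estimates that the program RSEM gives per gene, over 12312 to 12484 listed genes. Levels are given as FPKM, fragments scaled to transcript length and library depth, in the order of replicates 1, 2 and 3. Acta1, which encodes skeletal muscle actin, took 11.57% to 13.12% of the counts, and the summed FPKM of 8 defining muscle genes ranged from 138120 to 152960 over the DN libraries and from 143580 to 147090 over those of DN-SM. On the first principal component, with 36.6% of the variance, DN replicates had scores of -24.43, -16.92 and -17.97 and DN-SM replicates of 17.52, 20.51 and 21.29. The second component, with 20.4%, set DN-SM 3 at -26.36 apart from DN-SM 1 and DN-SM 2, at 14.53 and 15.26. For the lists described below, counts that moved without that library are therefore also given without it, or the called gene that was lost is named.

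Stimulation went with more genes higher than lower. Of 9934 genes tested with edgeR's quasi-likelihood F test, 716 (7.21%) passed a Benjamini-Hochberg adjusted p of 0.05. Of these, 592 (5.96% of genes tested) were higher in DN-SM and 124 (1.25%) lower, and these genes are called higher or lower below. Changes were moderate in size: the median absolute log2 fold change was 0.74 among the higher and 0.59 among the lower genes, and 107 higher and 16 lower genes changed by at least 2-fold. The FPKM of the groups did not overlap for 579 of the 592 higher and 124 of the 124 lower genes, while over all genes tested 11.4% separated upwards and 21.6% downwards. An unadjusted p under 0.05 was reached by 2420 of the 9934 genes, the background for such counts in the lists below.

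The number of calls depended on single libraries and on which groups shared the fit. It was 492, 411 and 489 without DN 1, 2 and 3 and 416, 274 and 537 without DN-SM 1, 2 and 3, and 227 genes (214 higher, 13 lower) were called each time. With all 9 libraries in 1 fit the count fell to 1, the serine protease inhibitor Serpina3n. A fit of all groups made 0 calls without SHAM 1, 339 without SHAM 2 and 416 without SHAM 3. On log2(FPKM + 1) with limma, 281 genes passed and 63.0% of them were higher, against 82.7% of the 716. The median log2 fold change of all genes was -0.01 by edgeR, -0.10 on that scale and -0.11 with a pseudocount of 0.1.

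**Figure D1:**
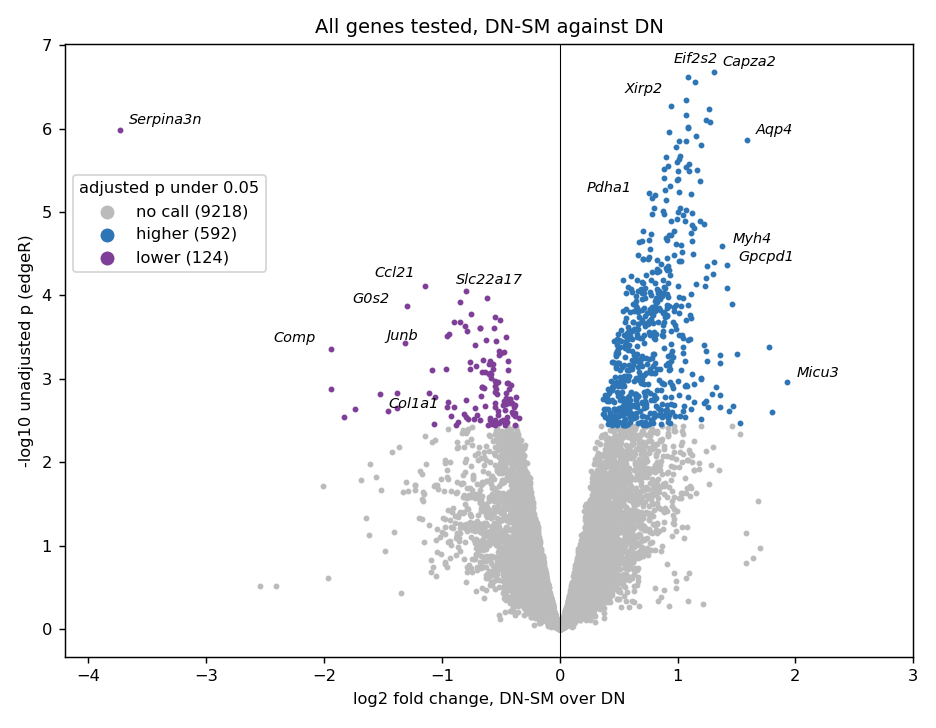
Each point is 1 of the 9934 genes tested. The x axis gives the log2 fold change of DN-SM over DN, the y axis -log10 of the unadjusted edgeR p, and colour the 592 higher and 124 lower genes. Serpina3n stands alone at the far left at -3.73, and most coloured points lie to the right of 0.

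Longer transcripts were called higher more often. The share of higher genes was 2.06%, 4.72%, 6.50%, 7.2% and 9.32% over 5 equal bins of genes from the shortest to the longest transcripts, while lower genes made up 0.806% to 1.46% of each bin. The difference between the median levels of the bins with the longest and the shortest transcripts, on the log2 scale, was 0.069, -0.033 and -0.041 in the DN libraries and 0.144, 0.165 and 0.035 in those of DN-SM. It was 0.236, 0.169 and -0.058 in SHAM. With each library's trend with transcript length taken out, 714 genes were called, 561 higher and 153 lower, and 617 of them were among the 716.

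The SHAM libraries did not form 1 level for these genes. SHAM and DN-SM were set against the same DN libraries, so their values are only given side by side. Over the 592 higher genes, the median log2 CPM (counts scaled to library size) minus the DN mean was 0.70, 0.74 and 0.76 in DN-SM and 0.56, 0.99 and 0.03 in SHAM. Over the 124 lower genes it was -0.55, -0.60 and -0.62 in DN-SM and -0.38, -0.78 and -0.25 in SHAM. Of the SHAM libraries, SHAM 2 was farthest from DN in both sets, and SHAM 3 was level with DN in the higher set.

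**Figure D2:**
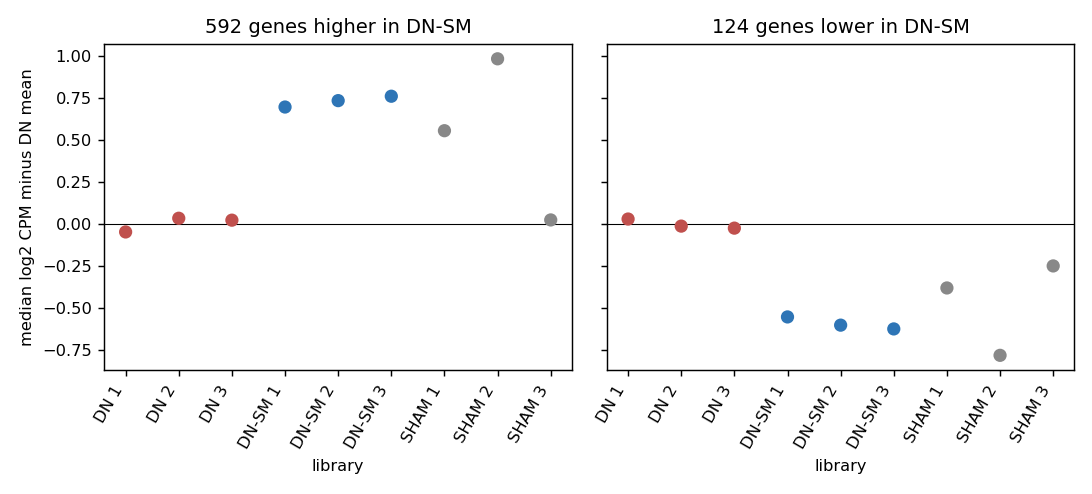
Each point is a library, and the y axis is the median over genes of log2 CPM minus the mean of the 3 DN libraries, for the 592 higher genes (left) and the 124 lower genes (right). The DN and DN-SM points were fixed by how the genes were chosen. The SHAM points spread from 0.03 to 0.99 on the left and from -0.78 to -0.25 on the right.

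The largest rise among genes of at least 5 FPKM was in Aqp4 (gene ID 25293), the water channel of the fast-fibre membrane. Its level was 2.62, 2.11 and 1.99 FPKM in DN, 5.12, 6.67 and 7.35 in DN-SM and 9.81, 7.39 and 4.28 in SHAM (log2 fold change of DN-SM over DN 1.59, SE 0.17, adjusted p = 0.00083). All DN-SM libraries lay above all DN libraries, and within the SHAM range. Gpcpd1 (gene ID 362219), a glycerophosphodiester phosphodiesterase, had 13.02, 14.6 and 8.87 FPKM in DN and 31.8, 32.5 and 27.4 in DN-SM (1.42, SE 0.19, adjusted p = 0.00479). Capza2 (gene ID 493810), a subunit of the protein that caps actin filaments at the Z-disc, had 17.2, 20.8 and 17.6 FPKM in DN and 46.2, 43.9 and 38.5 in DN-SM (1.31, SE 0.12, adjusted p = 0.00083). For Capza2 the SHAM libraries, at 36.2, 53.3 and 18.9 FPKM, ran from the level of DN to above DN-SM.

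Other leading rises were in genes of mitochondria, ribosome assembly and protein handling. Apool, a protein of the mitochondrial inner membrane, was higher by 1.42 on the log2 scale, and Acyp2, the muscle acylphosphatase, by 1.26. Gnl3, the nucleolar GTPase nucleostemin, was at 1.24, and the co-chaperones Dnajc21, of ribosome assembly, and Dnajc2, which binds ribosomes, were at 1.22 and 1.17. Cops2, a subunit of the COP9 signalosome that acts on cullin ligases, was at 1.19, and Emc2, of the complex that inserts membrane proteins in the endoplasmic reticulum, at 1.16. Krcc1 was at 1.30, Dynlt3, a light chain of the motor dynein, at 1.28, and Cib2, a calcium- and integrin-binding protein, at 1.2 (adjusted p = 0.0243). These rises passed with each of the 6 libraries left out in turn, Cib2 excepted, which did not pass without DN 1, DN 3, DN-SM 1 or DN-SM 2 (adjusted p up to 0.0836, without DN-SM 1).

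**Figure D3:**
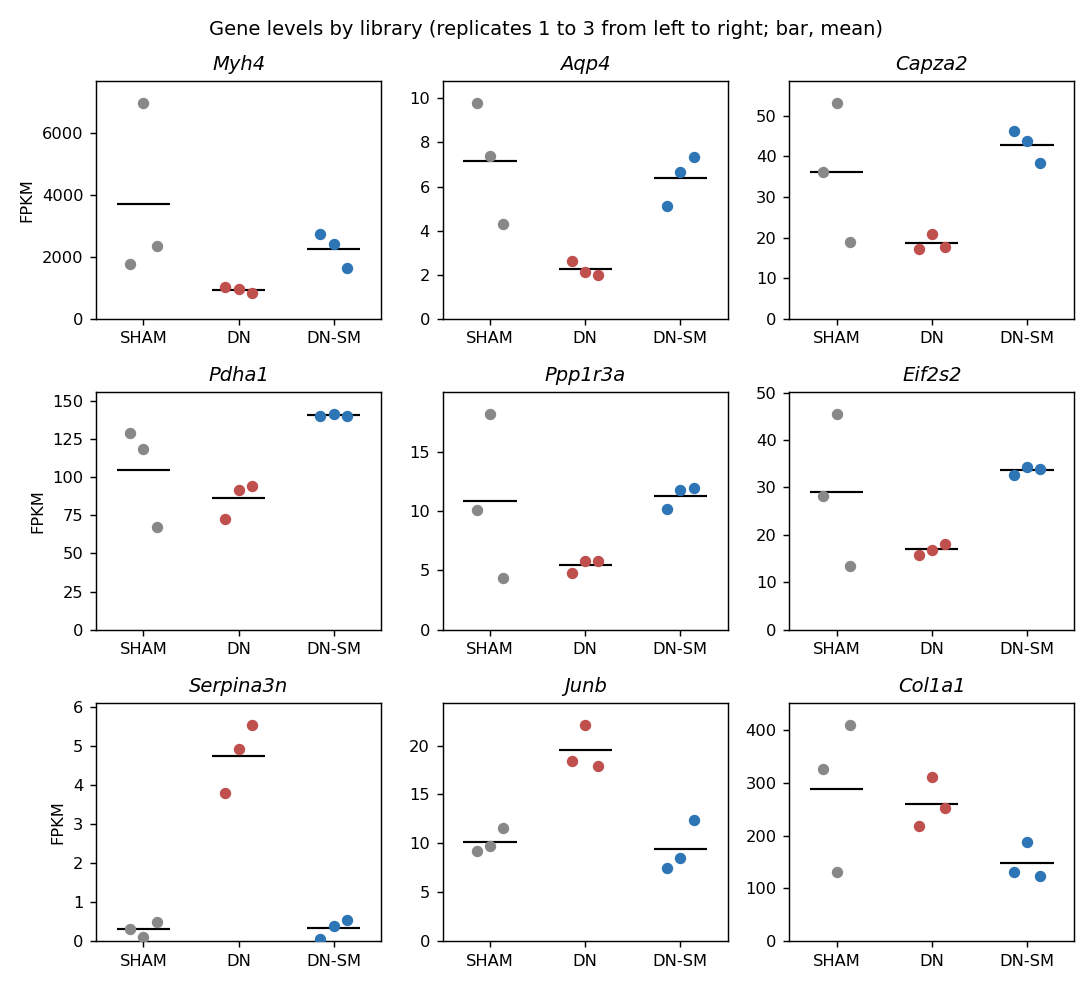
FPKM (y axis, from 0) of 9 genes in each library, with replicates 1 to 3 from left to right and a bar at the mean of each group. For Aqp4 DN spans 1.99 to 2.62 and DN-SM 5.12 to 7.35, for Junb 17.9 to 22.1 and 7.51 to 12.4, and the SHAM libraries are spread widely for several genes, among them Col1a1 (132 to 411) and Eif2s2 (13.5 to 45.5).

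Serpina3n (gene ID 24795), a secreted serine protease inhibitor known as an acute-phase gene, had the lowest ratio of all genes tested. It stood at 3.79, 4.93 and 5.55 FPKM in DN, 0.06, 0.39 and 0.55 in DN-SM and 0.30, 0.11 and 0.49 in SHAM (-3.73, SE 0.39, adjusted p = 0.00083). DN-SM and SHAM libraries overlapped and all lay below the lowest DN library. The bases around its start site are shown because this was the only gene that also passed in the fit of all 9 libraries. The window runs from 250 bases before to 50 bases after the start of the RefSeq gene model on the assembly GRCr8, which is not the build rn6 of the deposited files, at chr6:129088142-129088441 on the plus strand. Capitals mark a match to TTCNNNGAA, the spaced palindrome read by STAT factors, searched on both strands.
Serpina3n: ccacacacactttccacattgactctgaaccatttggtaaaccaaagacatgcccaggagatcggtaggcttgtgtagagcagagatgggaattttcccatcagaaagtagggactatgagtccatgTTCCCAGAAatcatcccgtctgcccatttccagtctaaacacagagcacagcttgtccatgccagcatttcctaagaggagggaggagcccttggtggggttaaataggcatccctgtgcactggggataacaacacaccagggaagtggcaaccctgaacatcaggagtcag
The match lay from -123 to -115 relative to the start. Of 33469 rat promoter windows of this length, 8.87% hold such a match, and 14.2% hold TATAAA, which was not found in this window. A match of letters is a description and not a binding site.

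The falls named by the rule were smaller. G0s2 (gene ID 289388), an inhibitor of the fat-splitting lipase ATGL, stood at 28.8, 21.8 and 26.6 FPKM in DN and 8.22, 7.41 and 13.9 in DN-SM (-1.30, SE 0.22, adjusted p = 0.00816), with SHAM at 60.04, 13.3 and 27.5. Ccl21, a chemokine that draws lymphocytes and dendritic cells, fell from 23.3, 22.0 and 24.6 to 8.69, 13.3 and 7.46 FPKM (-1.14, SE 0.19, adjusted p = 0.00673). Neither gene's groups overlapped. Slc22a17, a receptor for lipocalin, had a log2 fold change of -0.85, and Slc4a3, an anion exchanger, of -0.85. Tmem9, a lysosomal membrane protein, was at -0.94, Stn1, a telomere-binding protein, at -0.90, and Acbd4, an acyl-CoA-binding protein, at -0.80. All of these passed with each library left out. The unnamed gene ID 24737 (-1.08) did not pass without DN 1, DN-SM 2 or DN-SM 3 (adjusted p up to 0.0951, without DN 1). Coprs, a cofactor of an arginine methyltransferase (-0.88), was lost without every library but DN 1 (adjusted p up to 0.164, without DN 3), and Foxs1, a forkhead factor (-0.79), without any of the 6 (up to 0.112, without DN-SM 2).

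Several genes of fast fibres were higher in DN-SM. Of 16 tested, 5 were called higher against 5.96% of all genes tested, and all 16 had a log2 fold change above 0, with a median of 0.46 beside -0.01 for all genes. Myh4 (gene ID 360543), the myosin heavy chain of the fastest (2B) fibres, stood at 1009, 942 and 827 FPKM in DN and 2732, 2401 and 1626 in DN-SM (1.38, SE 0.20, adjusted p = 0.0035). SHAM was at 1752, 6969 and 2331. The lowest DN-SM library, DN-SM 3, was still above the highest DN library, and Myh4 passed with each library left out. Myh4 made up 17.7%, 15.7% and 14.3% of the FPKM summed over 6 myosin heavy chain genes in the DN libraries and 34.0%, 30.2% and 22.9% in those of DN-SM. The 2X myosin Myh1 was at 0.61 (adjusted p = 0.0802) and the 2A myosin Myh2 at -0.40 (0.561), and neither passed. How reads were divided among these related genes was not tested.

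The start of Myh4 is shown because it is the called contractile gene with the largest change. The window lies at chr10:52421898-52422197 on the plus strand of GRCr8. Capitals mark E-boxes (CANNTG, the letters read by MyoD-type factors), a CArG box (the letters read by serum response factor) and TATAAA, all searched on both strands.
Myh4: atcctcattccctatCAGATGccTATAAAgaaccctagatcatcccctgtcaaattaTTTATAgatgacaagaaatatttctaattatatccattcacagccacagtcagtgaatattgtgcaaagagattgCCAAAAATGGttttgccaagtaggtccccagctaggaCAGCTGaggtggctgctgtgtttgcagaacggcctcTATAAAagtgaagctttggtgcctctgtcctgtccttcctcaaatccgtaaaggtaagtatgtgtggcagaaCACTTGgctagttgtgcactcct
The E-boxes lay from -235 to -230, from -81 to -76 and from 28 to 33, the CArG box from -118 to -109, and the copies of TATAAA or its reverse complement from -227, -193 and -45. Among the 33469 windows, 72.1% hold an E-box, 1.64% a CArG box and 14.2% TATAAA. No match to the MEF2 motif, which 0.565% of windows hold, was found in this one.

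The other fast-fibre calls named here were smaller. Pvalb, the calcium buffer parvalbumin, rose by 0.77 (6436, 5420 and 4479 FPKM in DN and 9835, 8725 and 7644 in DN-SM), and Tnnc2, the fast troponin C, by 0.61. Casq1, which stores calcium in the sarcoplasmic reticulum, rose by 0.46. The fast-fibre count was 4, 2 and 3 without DN 1, 2 and 3 and 1, 1 and 5 without DN-SM 1, 2 and 3. Pvalb was lost without DN 2, DN-SM 1 or DN-SM 2 (adjusted p up to 0.0804, without DN-SM 1), Tnnc2 without DN 1, DN 3, DN-SM 1 or DN-SM 2 (up to 0.0883, without DN-SM 2), and Casq1 without DN 2, DN 3, DN-SM 1 or DN-SM 2 (up to 0.152, without DN-SM 2).

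Slow-fibre genes divided the DN-SM libraries. With all 6 libraries edgeR called 0 of 12, with 2 at an unadjusted p under 0.05, DESeq2 called 1 (higher), and limma with voom weights or on FPKM 0, and the median log2 fold change was -0.35. Without DN-SM 3, 10 of the 12 were called lower. Myl3, the slow ventricular-type myosin light chain, stood at 5902, 5593 and 6830 FPKM in DN and at 2415, 2504 and 5247 in DN-SM. Tnni1, the slow troponin I, stood at 1646, 1530 and 2016 FPKM in DN and 736, 680 and 1779 in DN-SM. DN-SM 3 was thus near the DN libraries, whereas DN-SM 1 and DN-SM 2 were below them. Without DN-SM 3 the log2 fold change was -1.21 for Myl3 (adjusted p = 0.00171, against -0.75 and 0.193 with it) and -1.18 for Tnni1 (0.00192, against -0.60 and 0.441). Myh7, the slow myosin, moved from -0.35 (adjusted p = 0.482) to -0.73 (0.0273). The 2 members not called without DN-SM 3 were Casq2, the slow calsequestrin, and Mybpc1, the slow myosin-binding protein C. SHAM 1, 2 and 3 held 5350, 1581 and 3512 FPKM of Myl3, so SHAM was as widely spread.

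Of the embryonic and developmental sarcomere genes, which return in regenerating or denervated fibres, 1 of 6 was lower in DN-SM (16.7%, against 1.25% of all genes tested). This was Myl4, the embryonic myosin light chain, at 35.7, 34.8 and 43.4 FPKM in DN and 19.5, 23.0 and 24.0 in DN-SM (-0.68, SE 0.13, adjusted p = 0.0108), and it passed with each library left out. Without DN 1 or DN 2 the count of lower genes was 2. DESeq2 called 3 lower, and voom and limma on log2(FPKM + 1) 1 each, while 4 had an unadjusted edgeR p under 0.05. All 6 had a log2 fold change below 0, with a median of -0.66. Among them Actc1, the cardiac actin, was at -1.61 (adjusted p = 0.0882) and Myh3, the embryonic myosin, at -0.72 (0.145).

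The receptor and regulator genes of denervation were not called. Of 14 genes of the neuromuscular junction edgeR, DESeq2, voom and limma on FPKM called 0, with 3 at an unadjusted edgeR p under 0.05, and the median was -0.16. Among all 9934 genes tested 2420 had such a p. Chrna1, the alpha subunit of the acetylcholine receptor, stood at 16.8, 13.8 and 20.2 FPKM in DN and 11.02, 8.00 and 14.8 in DN-SM (-0.48, adjusted p = 0.199), and the groups overlapped. Chrng, the fetal gamma subunit, was at -1.15 (adjusted p = 0.286). Of 13 denervation-responsive regulators edgeR and DESeq2 called 0 and voom 1, with 3 at an unadjusted edgeR p under 0.05. Myog, the myogenic factor myogenin, stood at 33.7, 31.4 and 40.02 FPKM in DN and 20.5, 24.4 and 29.3 in DN-SM, without overlap (-0.40, adjusted p = 0.098). Cdkn1a, an inhibitor of the cell cycle, was at -0.70 (0.411). Without DN-SM 3 both lists had 2 members lower, and without DN 2 the regulators had 2. A p above the threshold does not show that these genes were alike in the groups.

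Several genes of the intermediate filament and costamere list, which also holds the water channel Aqp4, were higher. Of 19 members of the intermediate filament and costamere list, 5 were higher and 1 lower (26.3% and 5.26%, against 5.96% and 1.25% of all genes), with a median of 0.22. Without DN-SM 3 the count was 3 higher and 2 lower, with any other library left out 4 or 5 higher and 0 lower, and with the length trend taken out 5 higher and 3 lower. Voom called 6 higher and 2 lower. Apart from Aqp4 they were Sgcb, the beta subunit of the sarcoglycan complex (0.94; 15.1, 10.8 and 13.6 FPKM in DN and 23.3, 24.3 and 23.2 in DN-SM), Synm, the intermediate filament protein synemin (0.80), Sspn, the sarcoglycan partner sarcospan (0.55), and Itgb1, the beta chain of integrins (0.47). Itga7, the muscle integrin alpha chain that pairs with it, was lower, with a log2 fold change of -0.42. Aqp4, Sgcb and Synm passed with each library left out. Sspn did not without DN 1, DN 3 or DN-SM 3 (adjusted p up to 0.054, without DN 1), Itgb1 not without DN 2, DN-SM 2 or DN-SM 3 (up to 0.101, without DN-SM 2), and Itga7 not without any library but DN-SM 3 (up to 0.153, without DN-SM 2).

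At the Z-disc and M-band 2 of 15 genes were higher (13.3%, against 5.96% of all genes tested). Without DN-SM 3, 1 was lower as well. The share higher was 9.52% for actin capping, filament turnover and septins and 11.1% for excitation-contraction coupling and membrane channels. Xirp2, an actin-binding repair protein of the Z-disc and intercalated regions, stood at 42.7, 51.1 and 48.6 FPKM in DN and 89.8, 91.8 and 96.9 in DN-SM (1.07, SE 0.10, adjusted p = 0.00083). Its lowest DN-SM library was well above its highest DN library. Myom2, a cross-linker of the M-band, was at 0.60 and lost its call without every library but DN-SM 3 (adjusted p up to 0.13, without DN-SM 2). Of 21 genes of actin capping, filament turnover and septins, Capza2 and Septin7, a GTPase that forms filaments (1.09), were higher, and without DN 1 the count was 3 higher and 1 lower. In the list of excitation-contraction coupling and membrane channels 2 of 18 were higher, Trdn, the triadin of the junctional sarcoplasmic reticulum (54.6, 75.04 and 69.9 FPKM in DN and 128, 129 and 120.5 in DN-SM; 1.02, adjusted p = 0.00103), and Jph1, which holds that membrane to the T-tubule (0.58). Jph1 was lost without DN 2, DN 3, DN-SM 1 or DN-SM 2 (adjusted p up to 0.147, without DN-SM 2).

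Several genes of glycogen metabolism and of the citric acid cycle were higher, while glycolysis and the respiratory chain held 0 and 2 edgeR calls. The difference between these lists was not tested. Of 14 glycogen genes 4 were higher (28.6%, against 5.96% of all genes tested), with a median of 0.52. DESeq2 called 7 of them higher, voom 4 and limma on log2(FPKM + 1) 3. Ppp1r3a, which holds protein phosphatase 1 to glycogen, stood at 4.82, 5.81 and 5.80 FPKM in DN and 10.2, 11.8 and 11.9 in DN-SM (1.14, SE 0.11, adjusted p = 0.00083). Phkb, a regulatory subunit of phosphorylase kinase, was at 1.04, and Ugp2, which makes the glucose donor for glycogen synthesis, at 0.87. Phkb did not pass without DN 2 or DN-SM 2 (adjusted p up to 0.0581, without DN-SM 2), and Ugp2 not without DN 3, DN-SM 1, DN-SM 2 or DN-SM 3 (up to 0.13, without DN-SM 2). The glycogen count was 2 without DN-SM 2 and 6 without DN-SM 3. Of 16 glycolysis genes edgeR called 0, with 2 at an unadjusted p under 0.05, DESeq2 and voom 1 each and limma on FPKM 0, while 14 had a log2 fold change above 0 and the median was 0.24. Without DN-SM 3, 1 glycolysis gene was called higher and 1 lower.

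Of 21 genes of pyruvate dehydrogenase and the citric acid cycle, 7 were higher (33.3%, against 5.96% of all genes tested), with a median of 0.20. Pdha1 (gene ID 29554), the catalytic alpha subunit of pyruvate dehydrogenase, stood at 72.8, 91.7 and 94.3 FPKM in DN and 140, 141 and 140 in DN-SM (0.81, SE 0.10, adjusted p = 0.00158), with SHAM at 129, 118 and 67.1. The 3 DN-SM libraries were nearly level. Dld, the E3 subunit shared with other dehydrogenase complexes, was at 1.08, and Dlat, the E2 subunit, at 0.45. Pdp1, the phosphatase that switches the complex on, was at 0.52. In the cycle itself Sucla2, a subunit of succinyl-CoA ligase, stood at 0.89 (42.5, 69.6 and 66.8 FPKM in DN and 102, 103 and 103 in DN-SM), Idh3a, of the NAD-dependent isocitrate dehydrogenase, at 0.64, and Fh, fumarase, at 0.49. Pdha1, Dld, Sucla2 and Idh3a passed with each library left out. Fh was lost without DN-SM 2 (adjusted p = 0.0604), Dlat without DN 2, DN 3, DN-SM 1 or DN-SM 2 (up to 0.0777, without DN-SM 1), and Pdp1 without any library but DN-SM 3 (up to 0.122, without DN-SM 2). Without DN-SM 2 the count was 4.

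In 3 other mitochondrial lists the shares of higher genes were closer to the 5.96% of all genes tested than the 33.3% of the citric acid cycle list was. Of 36 genes of the respiratory chain and ATP synthase 2 were higher (5.56%), Uqcrc2, a core subunit of complex III (0.63), and Ndufs1, the largest subunit of complex I (0.60; lost without DN-SM 2, adjusted p = 0.0508). The median of these 36 was -0.02. DESeq2 called 4 of them higher, beside 499 of all 9934 genes, edgeR 3 with the length trend taken out, and limma on FPKM 0. Of 23 genes of fatty acid uptake and oxidation 1 was higher (4.35%), Etfdh, which passes electrons from fatty acid oxidation to the chain (0.54; lost without DN 1, DN 2, DN-SM 2 or DN-SM 3, adjusted p up to 0.0745, without DN-SM 2). Of 17 genes of mitochondrial biogenesis and dynamics 2 were higher (11.8%), Tfb2m, a factor of mitochondrial transcription (0.76), and Dnm1l, the fission GTPase (0.66; lost without any library but DN 1, up to 0.14, without DN 3). Ppargc1a, the coactivator PGC-1alpha, stood at 0.94, 1.16 and 1.14 FPKM in DN and 1.37, 2.07 and 1.18 in DN-SM (0.61, adjusted p = 0.198). In the separate list of energy sensing and creatine 2 of 12 were higher (16.7%), Gpcpd1 and Ampd1, the AMP deaminase of muscle (0.53; lost without any library but DN 2, adjusted p up to 0.139, without DN-SM 1). Without DN-SM 3 the count of this list was 3 higher.

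Many genes of messenger RNA processing and of translation were higher, with shares close to that of the citric acid cycle list (33.3%); differences between these lists were not tested. Of 34 genes of splicing and RNA binding 12 were higher (35.3%, against 5.96% of all genes), with a median of 0.48. Rbfox1, a muscle splicing factor, stood at 17.3, 15.4 and 17.9 FPKM in DN and 28.1, 31.7 and 30.2 in DN-SM (0.93, SE 0.10, adjusted p = 0.00083). Hnrnpa2b1, an abundant RNA-binding protein of the nucleus, stood at 52.8, 59.8 and 67.8 FPKM in DN and 92.4, 87.6 and 88.3 in DN-SM (0.68, SE 0.10, adjusted p = 0.00328). Both genes separated the groups in every library. The other called members were Pnisr (0.94), the kinase of splicing factors Clk1 (0.80), Luc7l2 (0.78), Luc7l3 (0.77), Rbm25 (0.70), Hnrnpdl (0.56), Hnrnpu (0.55), Hnrnpa3 (0.52), Srsf11 (0.45) and the helicase Ddx5 (0.39). The count was 9, 6 and 12 without DN 1, 2 and 3 and 9, 5 and 9 without DN-SM 1, 2 and 3, and Rbfox1, Hnrnpa2b1, Luc7l3 and Rbm25 were called each time. On log2(FPKM + 1) it was 3.

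Of 25 genes of translation initiation and elongation 9 were higher (36.0%), with a median of 0.24. Eif2s2 (gene ID 296302), the beta subunit of the factor that brings the initiator tRNA, stood at 15.8, 16.8 and 18.2 FPKM in DN and 32.7, 34.3 and 34.0 in DN-SM (1.09, SE 0.10, adjusted p = 0.00083). Its SHAM levels, 28.1, 45.5 and 13.5, ran from below DN to above DN-SM. Eif3e and Eif3a, subunits of the scaffold factor eIF3, were at 0.92 and 0.64, and Eif5b, which joins the ribosomal subunits, at 0.56. The others were Eif4a2 (0.59), Eif2s1 (0.58), Tpt1 (0.55), Eif4g3 (0.49) and Eif4g2 (0.39). The count was 7, 4 and 5 without DN 1, 2 and 3 and 4, 2 and 5 without DN-SM 1, 2 and 3, and Eif2s2 and Eif3e were called each time. On log2(FPKM + 1) it was 1. In neither this list nor those of splicing, the citric acid cycle, glycogen and fast fibres was any member lower at an unadjusted p under 0.05, and DESeq2, voom and limma on FPKM also called 0 lower. This holds for the members written into the lists. Over all 52 tested genes whose symbol starts with Eif, 14 were higher and 1, Eif2b2, was lower, with a median of 0.07.

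The ribosomal proteins themselves showed no edgeR calls before the trend in transcript length was taken out. EdgeR, DESeq2 and voom called 0 of 75 cytosolic ribosomal protein genes, with 11 at an unadjusted edgeR p under 0.05 (8 lower, 3 higher) and 1 called lower by limma on log2(FPKM + 1), and their median was -0.07. Of the 75, 51 had a log2 fold change below 0. Their FPKM separated downwards for 35 and upwards for 1, while over all genes tested 21.6% separated downwards and 11.4% upwards. EdgeR, DESeq2 and voom also called 0 of 65 mitochondrial ribosomal protein genes, with 7 at an unadjusted edgeR p under 0.05 (2 lower, 5 higher) and 1 lower by limma on log2(FPKM + 1), and a median of -0.05. Of the 65, 16 separated downwards and 2 upwards. Both medians turned to 0.00 and 0.02 with the trend in transcript length taken out. In that fit edgeR called 3 cytosolic and 1 mitochondrial ribosomal protein genes higher and 0 lower. These genes are short, with a median transcript length of 564 bases for the cytosolic and 1038 for the mitochondrial list, against 2276 for splicing and 2035 for translation factors.

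**Figure D4:**
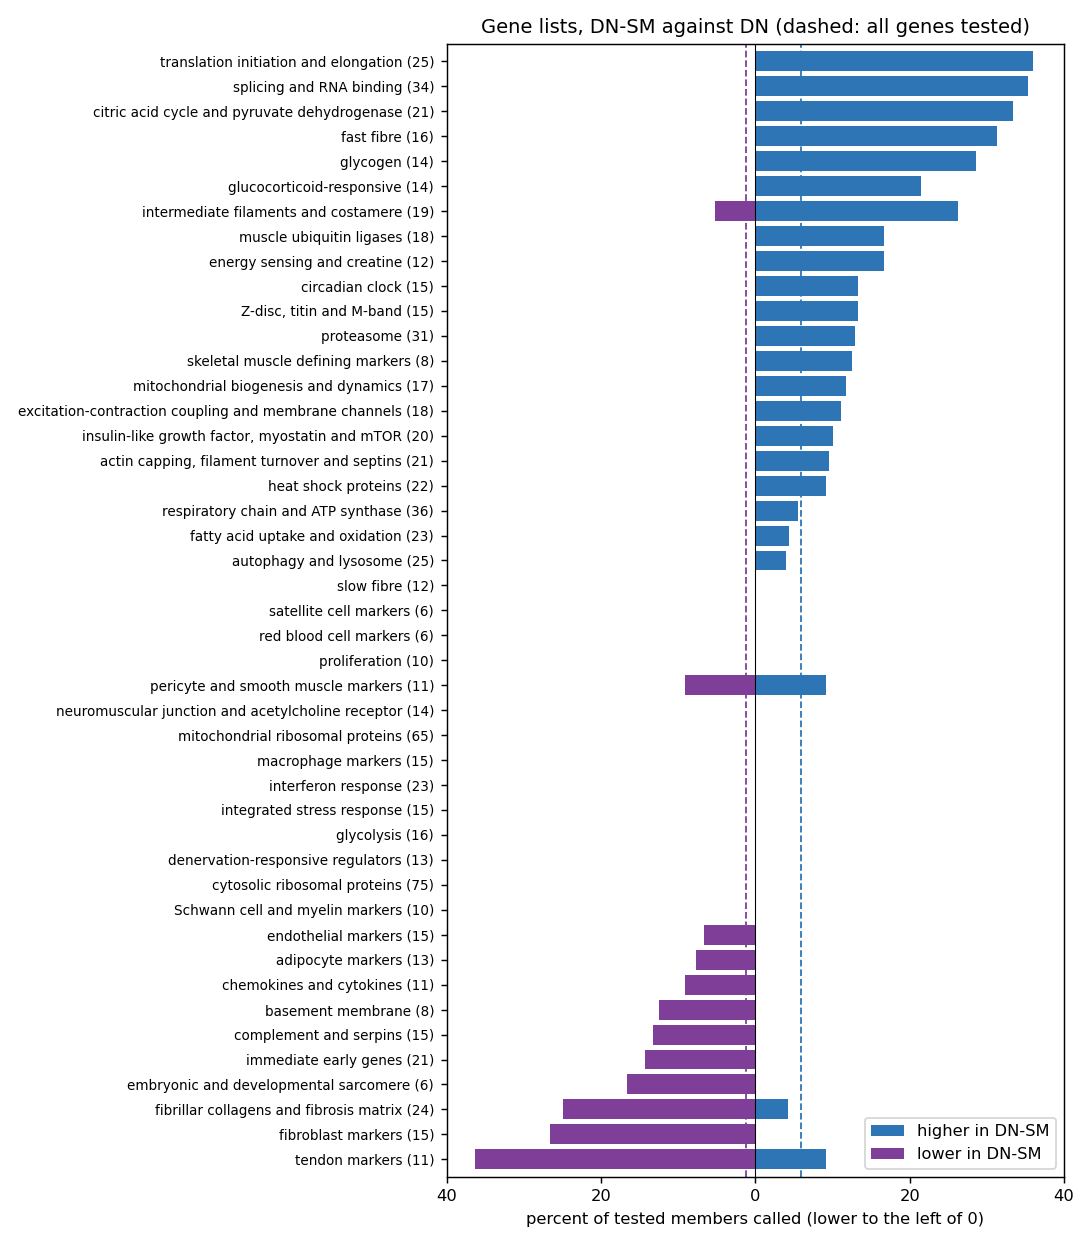
Percent of the tested members of each list (number in brackets) called higher in DN-SM (right of 0) or lower (left of 0), for the lists with at least 5 tested members. Dashed lines mark the shares among all genes tested, 5.96% higher and 1.25% lower. Translation (36.0%), splicing (35.3%) and the citric acid cycle (33.3%) have the longest bars on the right, and tendon (36.4%), fibroblast (26.7%) and collagen (25.0%) lists on the left.

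Protein breakdown showed a mixed pattern. Called higher were 16.7% of the ubiquitin ligase list, 12.9% of the proteasome list and 4% of the autophagy and lysosome list. Among all genes tested the share was 5.96%. Of 18 muscle ubiquitin ligase genes 3 were higher: Cul3, a cullin scaffold (7.6, 6.25 and 7.98 FPKM in DN and 16.5, 13.5 and 15.5 in DN-SM; 1.16, adjusted p = 0.00083), Klhl31, a muscle adaptor of that cullin (0.66), and Trim55, the ligase MuRF2 (0.50; lost without DN-SM 2, adjusted p = 0.0523). DESeq2 and voom each called 1 member lower, and so did edgeR without DN-SM 3. Klhl40, another muscle cullin adaptor, was at -0.41 with edgeR on all 6 libraries, which was not called (adjusted p = 0.0628). The atrophy ligases were not called. Fbxo32, or atrogin-1, stood at 2.33, 5.37 and 5.30 FPKM in DN and 2.79, 3.34 and 3.75 in DN-SM (-0.29, adjusted p = 0.599), and Trim63, or MuRF1, at 88.1, 72.3 and 89.8 and 70.0, 71.9 and 91.5 (log2 fold change under 0.01 in size, adjusted p = 0.996). For both genes the groups overlapped. Of 31 proteasome genes 4 were higher: Psmc6 (0.91), Psma3 (0.77), Psmd1 (0.56) and Psmd12 (0.41), the last lost without any 1 of the 6 libraries (adjusted p up to 0.118, without DN-SM 2). Of 25 genes of autophagy and the lysosome 1 was higher, the initiating kinase Ulk2 (0.85).

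Among stress and chaperone genes, 2 of 22 heat shock genes were higher (9.09%, against 5.96% of all genes tested), Hspd1, the mitochondrial chaperonin (0.57), and Hspa4 (0.45). Hspd1 and Hspa4 were both lost without any library but DN 3 (adjusted p up to 0.0947 and 0.131, both without DN-SM 2). DESeq2 called 3 heat shock genes lower and voom 2, where edgeR called 0 with 6 at an unadjusted p under 0.05. Without DN-SM 3 the edgeR count was 0 higher and 3 lower, and without DN 3 it was 3 higher and 0 lower, so the direction of the calls in this list turned with 1 library. The median of the list was -0.13. For the integrated stress response edgeR, DESeq2, voom and limma on FPKM called 0 of 15, with 2 at an unadjusted edgeR p under 0.05.

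Hormone, clock and growth genes held a few calls. Shares higher were 21.4% of the glucocorticoid, 13.3% of the clock and 10% of the growth factor list, against 5.96% of all genes. Of 14 glucocorticoid-responsive genes 3 were higher and all 14 had a log2 fold change above 0, with a median of 0.35. Fkbp5, a co-chaperone of the glucocorticoid receptor, stood at 1.24, 1.84 and 1.82 FPKM in DN, 2.72, 4.24 and 3.79 in DN-SM and 5.54, 5.91 and 4.49 in SHAM (1.24, SE 0.21, adjusted p = 0.00673). Its DN-SM libraries lay between the other groups. Nr3c1, the receptor itself, was at 0.61 (lost without DN-SM 2, adjusted p = 0.075), and Glul, glutamine synthetase, at 0.61 (lost without any library but DN-SM 1, up to 0.155, without DN 1). Of 15 clock genes 2 were higher, the repressor Nr1d2 (0.76) and Per2 (0.54), which was lost without any library but DN-SM 1 (up to 0.121, without DN-SM 2). The related repressor Nr1d1 went the other way, at 192, 218 and 186 FPKM in DN and 163, 122 and 122 in DN-SM. It was not called (-0.45, adjusted p = 0.0757), though its groups did not overlap. DESeq2, and edgeR without DN-SM 1, each called 1 clock gene lower. Bmal1, the activator of the clock, stood at 1.11, 1.06 and 1.71 FPKM in DN, 1.42, 0.57 and 1.37 in DN-SM and 8.55, 5.84 and 6.43 in SHAM (DN-SM against DN -0.10, adjusted p = 0.886). Both injured groups lay below every SHAM library for Bmal1. In the growth factor list 2 of 20 were higher, Mstn, the growth inhibitor myostatin (0.93, 1.06 and 1.05 FPKM in DN and 2.91, 2.69 and 1.68 in DN-SM; 1.36, adjusted p = 0.0323), and Rps6kb1, the S6 kinase (1.01). Mstn was lost without any library but DN-SM 3 (adjusted p up to 0.118, without DN-SM 2). The growth factor count was 3 higher without DN-SM 3, and 1 higher and 1 lower without DN 1.

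Immediate early genes, which cells switch on within minutes of a stimulus, held 3 lower genes, all of the AP-1 family. They were 3 of 21 tested, against 1.25% of all genes, and the median was -0.40. Junb (gene ID 24517), an AP-1 subunit that is also known to favour fibre growth, stood at 18.5, 22.1 and 17.9 FPKM in DN, 7.51, 8.44 and 12.4 in DN-SM and 9.18, 9.67 and 11.6 in SHAM (-0.95, SE 0.18, adjusted p = 0.0118). All DN libraries were above all others. Fos, its partner, stood at 4.73, 6.36 and 3.62 FPKM in DN, 1.17, 1.46 and 2.69 in DN-SM and 8.89, 11.4 and 3.96 in SHAM (-1.38, adjusted p = 0.0311), and Fosb was at -1.31 (adjusted p = 0.0132). For Fos, unlike Junb, the SHAM levels overlapped DN and reached above it. Junb was lost without DN 1 or DN-SM 2 (adjusted p up to 0.061, without DN-SM 2), Fosb without DN 2 or DN-SM 2 (up to 0.0552, without DN-SM 2), and Fos without DN 1, DN 2, DN-SM 1 or DN-SM 2 (up to 0.122, without DN-SM 2). The count was 0 without DN-SM 2 and 5 without DN-SM 3. DESeq2 called 6 lower, voom 3, and limma 4 on log2(FPKM + 1) and 2 with a pseudocount of 0.1, while 7 had an unadjusted edgeR p under 0.05.

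The start of Junb, at chr19:40080876-40081175 on the plus strand of GRCr8, is shown as that of the called immediate early gene with the smallest p. Capitals mark TATAAA.
Junb: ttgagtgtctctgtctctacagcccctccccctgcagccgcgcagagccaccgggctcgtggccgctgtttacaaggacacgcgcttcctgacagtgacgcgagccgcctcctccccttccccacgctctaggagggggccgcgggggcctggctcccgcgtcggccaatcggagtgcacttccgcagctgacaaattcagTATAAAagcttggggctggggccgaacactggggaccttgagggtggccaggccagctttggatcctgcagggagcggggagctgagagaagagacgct
TATAAA lay from -49 to -44. The letters TGACGTCA (the cyclic AMP response element, in 1.83% of windows), TGANTCA (the AP-1 site, in 7.33%) and the CArG box (in 1.64%) were not in this window on either strand, which says nothing of the rest of the gene.

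The lower genes included several of connective tissue. In bulk muscle, fewer cells of a type and less RNA per cell cannot be told apart. Of 24 genes of fibrillar collagens and fibrosis matrix 6 were lower and 1 higher, with a median of -0.44. These shares were 25.0% and 4.17%, against 1.25% and 5.96% of all genes tested. Col1a1 (gene ID 29393), the main chain of collagen I, stood at 218, 311 and 253 FPKM in DN, 131, 189 and 124 in DN-SM and 326, 132 and 411 in SHAM (-0.72, SE 0.18, adjusted p = 0.0385). DN and DN-SM did not overlap, while SHAM ran from the level of DN-SM to above DN. The other chain Col1a2 was at -0.63, elastin (Eln) at -0.76, Loxl1, which cross-links elastin, at -0.81, Mmp2, a gelatinase, at -0.51 and Col6a2 at -0.45. P4ha1, a collagen prolyl hydroxylase, was higher by 0.46. The count of lower genes was 4, 3 and 3 without DN 1, 2 and 3 and 4, 4 and 2 without DN-SM 1, 2 and 3, and 8 with the length trend taken out. Mmp2 was called each time, Loxl1 was lost without DN-SM 2 (adjusted p = 0.0552), Eln without DN-SM 1 or DN-SM 3 (up to 0.0643, without DN-SM 1), and Col1a1 without any library but DN-SM 2 (up to 0.114, without DN-SM 1). P4ha1 was lost without any 1 of the 6 (up to 0.127, without DN 2). On log2(FPKM + 1) the count of lower genes was 2, while DESeq2 called 8 lower and voom 7.

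Some fibroblast and tendon markers were lower by edgeR as well (26.7% and 36.4%, against 1.25% of all genes tested). Of 15 fibroblast markers 4 were lower: S100a4, a calcium-binding protein also found in leukocytes (36.2, 36.2 and 65.8 FPKM in DN and 19.5, 22.7 and 23.2 in DN-SM; -0.97, adjusted p = 0.0204), Fbln1, a matrix fibulin (-0.90), Mfap4, of elastic fibres (-0.65), and Col14a1 (-0.58). Without DN 2, DN 3, DN-SM 1 or DN-SM 2 the count was 1, and without DN 1 and DN-SM 3 it was 3 and 2. On log2(FPKM + 1) it was 0, while DESeq2 called 5 fibroblast markers lower and voom 4. The FPKM summed over the list ran from 615 to 739 in DN, from 512 to 545 in DN-SM and from 408 to 958 in SHAM. Of 11 tendon markers 4 were lower and 1 higher, with a median of -0.67. Comp, the cartilage oligomeric matrix protein, stood at 1.14, 1.66 and 0.86 FPKM in DN, 0.29, 0.38 and 0.21 in DN-SM and 1.65, 0.80 and 2.63 in SHAM (-1.94, SE 0.40, adjusted p = 0.015; 0.0619 without DN 2). Chad, chondroadherin, was at -1.83, Thbs4, a thrombospondin of tendon and muscle matrix, at -0.81 and Scx, the tendon transcription factor, at -0.61, while Prg4, lubricin, was higher by 0.77. The count of lower tendon markers was 2, 1 and 2 without DN 1, 2 and 3 and 1, 4 and 1 without DN-SM 1, 2 and 3. On log2(FPKM + 1) it was 1 and with a pseudocount of 0.1 it was 0, while DESeq2 called 6 lower and voom 2. Prg4 was lost without any library but DN-SM 3 (adjusted p up to 0.157, without DN 1). The summed tendon FPKM was 137 to 166 in DN and 74.8 to 115 in DN-SM, and the part of these markers in the collagen result was not tested.

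**Figure D5:**
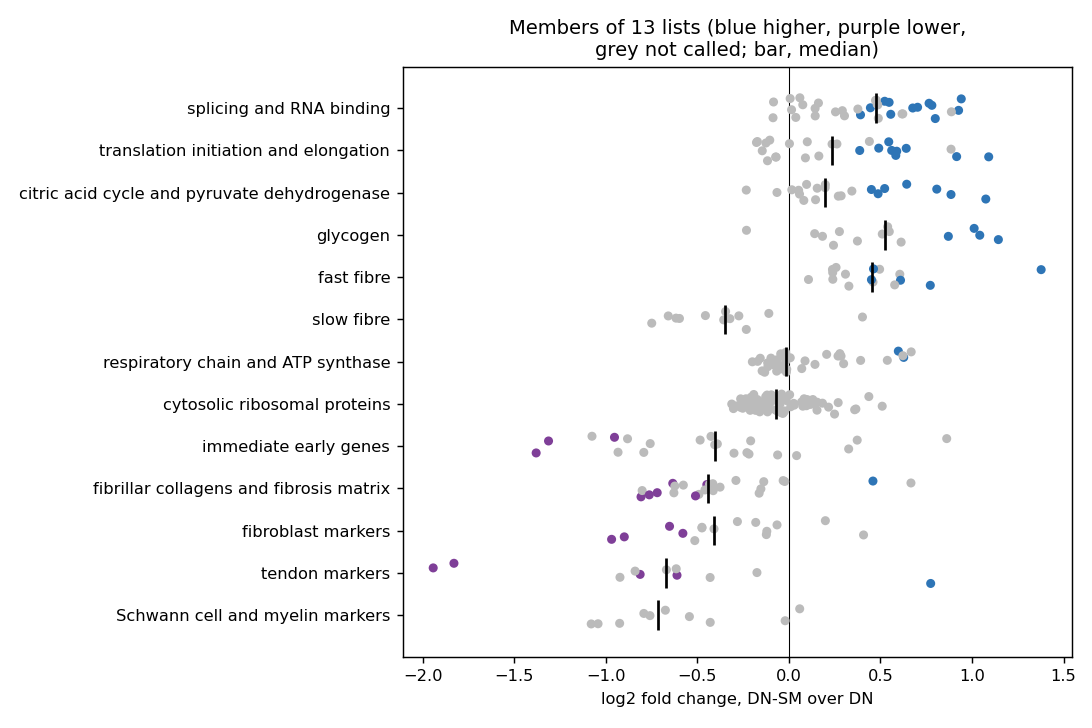
Log2 fold change of DN-SM over DN (x axis) for each tested member of 13 lists, with called members coloured and a black bar at the median. All 16 fast-fibre genes lie to the right of 0 and 11 of the 12 slow-fibre genes to the left, with the slow ones grey because none was called with all 6 libraries.

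Vascular, nerve and fat markers held at most 1 edgeR call in each direction with all 6 libraries, and more under some other settings. Among all genes tested 5.96% were higher and 1.25% lower. Of 15 endothelial markers Vwf, the von Willebrand factor, was lower (-0.56; lost without DN-SM 2, adjusted p = 0.052), and 2 were lower with the length trend taken out, and the list sum was 282 to 365 FPKM in DN and 246 to 268 in DN-SM. Of 8 basement membrane genes Col18a1 was lower (-0.43; lost without any library but DN 3, up to 0.131, without DN-SM 2), and 3 were lower with the length trend taken out. Of 11 pericyte and smooth muscle markers Abcc9, a potassium channel subunit, was higher (0.66; lost without DN-SM 2, adjusted p = 0.0503) and Tagln, a smooth muscle actin binder, lower (-0.55; lost without any library but DN-SM 3, up to 0.171, without DN-SM 2). Voom, and edgeR without DN-SM 3, called 2 of them lower. Of 13 adipocyte markers edgeR called G0s2 lower, with 5 at an unadjusted p under 0.05 and a median of -0.71, while DESeq2 called 3 lower, voom 2, and edgeR 2 without DN-SM 3 or with the length trend taken out. Of 10 Schwann cell and myelin markers edgeR called 0, with 2 at an unadjusted p under 0.05, DESeq2 and voom 1 lower each and limma on FPKM 0, edgeR called 1 lower without DN-SM 3, and the median was -0.72. Their summed FPKM was 156 to 340 in DN, 90.5 to 194 in DN-SM, with DN-SM 3 the highest there, and 74.9 to 81.8 in SHAM. Of 6 satellite cell markers and 10 proliferation genes all the tools called 0 with all 6 libraries, with 1 each at an unadjusted edgeR p under 0.05, and 1 satellite cell marker was called lower without DN-SM 3.

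Inflammatory genes were mostly uncalled. For 15 macrophage markers every tool called 0, with 0 at an unadjusted p under 0.05, and their summed FPKM was 252 to 351 in DN and 193 to 274 in DN-SM. For 23 interferon response genes edgeR called 0, with 6 at an unadjusted p under 0.05, DESeq2 1 lower, and voom and limma on FPKM 0. The median was -0.29, and 3 were called lower without DN-SM 1. Of 11 chemokines and cytokines Ccl21 was lower (9.09%, against 1.25% of all genes tested). In that list 4 genes with a fall and 2 with a rise had an unadjusted p under 0.05, and voom called 2 lower. Of 15 complement and serpin genes 2 were lower (13.3%), Serpina3n and Serpinf1, the anti-angiogenic serpin PEDF (70.0, 86.4 and 88.2 FPKM in DN and 44.5, 53.2 and 50.6 in DN-SM; -0.62, adjusted p = 0.00732). Both serpins passed with each library left out. The complement and serpin count was 4 without DN-SM 2 and 3 without DN 1, and DESeq2 called 4 lower and voom 3. Of 12 lymphocyte markers 1 had enough counts to be tested (unadjusted p under 0.05, called by no tool), and the B cell marker Ms4a1 was listed at 0 in all 6 libraries.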

How the data were processed

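Each deposited file lists the genes of 1 library with their values. Per the file headers, the expected counts are RSEM estimates that the authors did not normalize, and the deposited FPKM are scaled to effective length and library size. HISAT2, RSEM and GATK are named with rat build rn6, per the submitters' processing notes; versions are not given in the sources used here. Genes not listed in a file were set to 0. Of the 13752 gene IDs in the 9 files, 13649 were matched to a RefSeq symbol by gene ID and 3 by transcript accession.

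Rounded expected counts of the 3 DN and 3 DN-SM libraries were tested with edgeR 4.0.16 in R 4.3.3 (quasi-likelihood F test, robust, two-sided, TMM factors, group as the only term). The filter filterByExpr (count of at least 10, total of at least 15) kept 9934 genes, over which Benjamini-Hochberg adjustment was made (threshold 0.05). SE is the absolute log2 fold change divided by the square root of F. The code was tested on simulated data. With 7946227 to 8644286 counts per library, a change in a gene of few counts could be missed.

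The text names the 15 largest rises and falls among called genes with at least 5 FPKM in the higher group and no overlap, the members of smallest p in each list (4 at most), and Acta1, Serpina3n, Aqp4, Myh4, Myh1, Myh2, Myh7, Myh3, Chrna1, Chrng, Musk, Myog, Cdkn1a, Fbxo32, Trim63, Ppargc1a, Col1a1, Bmal1, Junb, Fos and Capza2, of which not all are printed; some called genes that the rule names, or that belong to a list, are not reported here. Further called members are named to complete a list's count. The comparison, the 46 lists (905 of 952 members matched, 855 tested) and the rule were chosen with earlier results of these data known, so a list is described by its counts and median without a test. Promoter sequences are RefSeq's on GRCr8. The alternatives, among them DESeq2 1.42.0 and limma 3.58.1, are given with their effect in the closing section.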

Additional observations from a re-analysis of the deposited data

How the results depend on the processing

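Of the 130 called genes named in the text, 56 were called with each of the 6 libraries left out, and none changed sign under any alternative run. Of the uncalled genes named, 3 changed sign under some alternative run. Trim63 was at 0.00076 without a filter, at 0.026 with the length trend removed and from -0.13 to 0.077 with 1 library left out. Bmal1 ran from -0.32 to 0.23 with 1 library left out. Acta1 was at -0.024 on each FPKM scale and from -0.015 to 0.15 with 1 library left out. The number of calls, 716 (592 higher, 124 lower; 101 in the lists), stayed within 1.5 times under RLE factors (691), upper-quartile factors (698), DESeq2 (637), voom with sample weights (852), all genes unfiltered (813), a CPM filter of 1 (706), depth computed with the 20 most abundant genes left out (644) and removal of the transcript length trend (714). With all 9 libraries in the fit it was 1 (0 higher, 1 lower, 1 in the lists), and 1784 genes had an unadjusted p under 0.05. In fits of all groups, added after the data were seen, it was 0 without SHAM 1 (1779 genes with an unadjusted p under 0.05), 339 without SHAM 2 (283 higher, 56 lower, 57 in the lists) and 416 without SHAM 3 (376 higher, 40 lower, 57 in the lists). By limma on log2(FPKM + 1) it was 281 (177 higher, 104 lower, 46 in the lists), with a pseudocount of 0.1 it was 236 (153, 83 and 37) and without a filter 48 (43, 5 and 14). With 1 library left out it ranged from 274 to 537 (244 to 418 higher, 30 to 120 lower, 50 to 106 in the lists), lowest without DN-SM 2. The causes were not tested. Promoter GC had a value for 75.8% of the lower, 81.25% of the higher and 82.1% of the uncalled genes. Its median was 62.2%, 62.3% and 61.0% in that order, and differences were not tested.

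The replicate numbers were not shown to pair the samples: deviations of same-numbered DN and DN-SM libraries correlated at 0.057, -0.021 and 0.108 across genes. With the number as a replicate block 818 genes were called (643 higher, 175 lower), 644 of them among the 716, and 120 of the 130 named genes kept their call.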

Other observations

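The gene families and genes in this section were chosen after their values were seen, families being grouped by the start of their symbols, and some members also stand in the lists. Calcineurin, the calcium-activated phosphatase that acts on NFAT factors in muscle, had 3 of 4 subunit genes higher: Ppp3ca (9.62, 8.18 and 7.72 FPKM in DN and 17.8, 15.0 and 16.4 in DN-SM; log2 fold change 1.04, adjusted p = 0.00212), Ppp3r1 (0.88) and Ppp3cb (0.79), each with every library left out in turn. Stim2, a calcium sensor of the endoplasmic reticulum, was higher by 0.92 and Homer1, a scaffold of calcium channels, by 0.88, and both passed with each library left out. Orai1, the channel that Stim proteins gate, was at -0.21 and was not called (adjusted p = 0.198). Micu3, a regulator of the mitochondrial calcium uniporter, had the largest log2 fold change among the higher genes, 1.93, at 0.31, 0.19 and 0.25 FPKM in DN and 1.24, 0.68 and 0.81 in DN-SM (adjusted p = 0.0259; lost without DN 1, DN 2, DN 3 or DN-SM 1, up to 0.107, without DN-SM 1). Scn3a, a sodium channel gene of neurons, was higher by 1.80, at 0.05, 0.08 and 0.04 FPKM in DN, 0.19, 0.19 and 0.18 in DN-SM and 0.05, 0.03 and 0.04 in SHAM (adjusted p = 0.0407), and was lost without any 1 of the 6 libraries (up to 0.131, without DN-SM 2). Micu3 and Scn3a lay near the floor in DN, and the count filter can be passed through the DN-SM libraries alone. Their fold changes and adjusted p are therefore descriptive only.

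Of 143 genes whose symbol starts with Zfp, 14 were higher, of 43 ubiquitin-specific proteases (Usp) 8, of 35 DnaJ co-chaperones 8 and of 7 cullins 3 (among them Cul3, also counted among the ubiquitin ligases), with 0 lower in each, against 5.96% higher and 1.25% lower of all genes tested. Solute carriers (Slc) had 3 higher and 3 lower of 173, and genes whose symbol starts with Tmem 2 higher and 2 lower of 123. Of 52 genes whose symbol starts with Eif, 14 were higher and 1 lower. Of 14 tubulins and tubulin-related genes 4 were lower, against 1.25%: Tuba1a, Tuba1b, Tuba1c and Tubb6. Tuba1a stood at 71.6, 74.8 and 88.5 FPKM in DN, 56.9, 52.6 and 42.1 in DN-SM and 57.6, 36.3 and 58.3 in SHAM (-0.53, adjusted p = 0.0259; lost without DN 2, DN 3, DN-SM 2 or DN-SM 3, up to 0.0795, without DN-SM 2). Tuba1b was lost without DN 1, DN 3, DN-SM 2 or DN-SM 3 (up to 0.0902, without DN-SM 2), Tuba1c without DN 2, DN-SM 1 or DN-SM 2 (up to 0.0795, without DN-SM 2), and Tubb6 without any library but DN 2 (up to 0.139, without DN 1) and with the length trend taken out. Reads shared among these near-identical genes could be split in counting. The cytoskeletal genes Actb (-0.44, lost without DN 2, DN-SM 1 or DN-SM 2, up to 0.0952, without DN-SM 2) and Flna (-0.55, lost without DN-SM 2, 0.0538), which many cell types share, were lower as well.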
